A study of Peromyscus maniculatus and Peromyscus polionotus and Peromyscus maniculatus x Peromyscus polionotus with 18 samples.

Results

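Cadherins and protocadherins were described in whole-brain RNA of deer mice, by species, by trial and by parental allele. The genes were all rows whose symbol, read without regard to case, was Cdh followed by a number or began with Pcdh. There were 61 of them: 23 cadherins, 27 clustered protocadherins and 11 other protocadherins. The table of the 2 species held 39 of them among 20731 rows, and the table of the hybrids held 45 among 11928 rows, of which 23 were in both. The study set *Peromyscus polionotus*, the oldfield mouse, which digs long burrows with an escape tunnel, against *Peromyscus maniculatus*, the deer mouse, which digs short ones, and added their F1 hybrids. Groups were *P. polionotus* after a burrowing trial and after a control trial, *P. maniculatus* after a burrowing trial and after a control trial, and F1 hybrids after a burrowing trial and after a control trial, with 3 libraries in each of the 6 groups. All animals were males of about 50 to 80 days that had been through 2 earlier trials in the sand-filled enclosures and were killed when the test trial ended. The labels name neither a mutation nor a drug in any group and do not say what the control trial consisted of, and they put *P. maniculatus* first in the name of the hybrid without saying whether it was the mother.

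Cadherins are transmembrane proteins whose extracellular repeats bind calcium and hold cells together. Classical cadherins pair with the same or a similar cadherin on the next cell and are tied to the actin skeleton through catenins. The clustered protocadherins lie in alpha, beta and gamma gene arrays. Each neuron uses a small, partly random set of their promoters, chosen largely allele by allele with the help of the factor CTCF and cohesin, and the resulting surface code lets a neuron tell its own branches from those of others. Variable exons of the alpha and of the gamma genes are each spliced to the same constant exons, and beta genes resemble each other closely. No source used here says how reads that fit several of these genes were counted, so every value of a clustered protocadherin is uncertain in that respect. The other protocadherins are encoded outside those arrays, each with its own pattern in the brain.

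Values of the 2 species are TPM made by the authors, a scale meant for setting levels of different genes side by side. Values of the hybrids are whole-number counts of reads given to either allele. Of the 39 members in the TPM table, 33 had a mean of at least 1 TPM over the 12 libraries and were tested: 17 cadherins, 6 clustered and 10 other protocadherins. Pcdh12 and Cdh20 lay just inside that limit, and the nearest members below it were Pcdh15 and Cdh3. Cdh3, P-cadherin, averaged 0.205 ± 0.0463 TPM in *P. polionotus*, against 0.238 ± 0.0599 TPM in *P. maniculatus* (mean and SD of 6 libraries per species), and Pcdh15, a partner of Cdh23 in the tip links of inner-ear hair cells, averaged 0.451 ± 0.0248 TPM in *P. polionotus*, against 0.519 ± 0.0632 TPM in *P. maniculatus*. The other untested members were Cdh16, Cdh17, Cdh26 and Pcdhb1. All 45 members of the count table passed the limit of 20 counts per animal. Their counts over the 6 hybrids ran from 335 for Cdh3 to 48993 for Cdh13, out of 11415175 to 53906964 allele counts per animal.

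On the first principal component, which held 68.3% of the variance, the parental libraries separated by species. On the second (7.47%) 3 libraries stood away from the rest, polionotus burrowing replicate 3, polionotus control replicate 2 and maniculatus control replicate 3. Neuron markers (Snap25, Syt1, Rbfox3, Tubb3 and Stmn2) summed to 1386 to 1526 TPM in *P. polionotus*, against 1272 to 1440 TPM in *P. maniculatus*, as the label whole brain implies. Genes of the back of the brain were uneven between libraries. A list of 16 hindbrain and spinal cord genes summed to 39.6, 7.79 and 19.8 TPM in the polionotus control libraries and to 48.5 to 58.3 TPM in the polionotus burrowing libraries, against 36.5 to 52.7 TPM in maniculatus burrowing and 44.3 to 56 TPM in maniculatus control libraries. In bulk tissue, fewer cells of a type and less RNA per cell cannot be told apart, and no source used here says how well the reads of each species aligned.

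Among the members with a TPM value, other protocadherins were the most abundant. Their 11 rows summed to 385 to 453 TPM in *P. polionotus* libraries and to 325 to 411 TPM in *P. maniculatus* libraries. The 21 cadherin rows summed to 104 to 128 TPM in *P. polionotus* and to 116 to 156 TPM in *P. maniculatus*. The 7 clustered rows summed to 85.3 to 100.3 TPM in *P. polionotus* and to 72 to 87.7 TPM in *P. maniculatus*. They are 7 of the 27 clustered members and include no alpha and no C-type gene, so the clustered sum is incomplete. In the hybrids Pcdhac2 (31987 allele counts) and Pcdhgc3 (27644) came close to Pcdh10 (36532) and Pcdh1 (35846). Pcdh20 was the highest member in TPM, at 118 ± 6.95 TPM in *P. polionotus*, against 118 ± 4.06 TPM in *P. maniculatus*. Its difference was 0.01 on the log2(TPM + 1) scale (SE 0.04, adjusted p = 0.899), and the sign of so small a value changed with the scaling. Pcdh1 followed at 90.3 ± 7.03 TPM in *P. polionotus*, against 83.5 ± 10.8 TPM in *P. maniculatus*, then Pcdh8 and Pcdh10. These 3 overlapped each other in at least 1 species, so their order is not fixed by these libraries. Among cadherins Cdh24, Cdh2, Cdh15 and Cdh22 were highest in TPM, and among the clustered rows Pcdhgb7, Pcdhb7, Pcdhga2 and Pcdhga8. The hybrid counts gave another order of cadherins. Cdh24 had 26.4 TPM and 1253 allele counts, while Cdh13 had 1.7 TPM and 48993 allele counts. Cdh18 had 2.11 TPM and 27221 allele counts. Counts are not scaled for transcript length, and what made the orders differ was not tested. The ranking of cadherin levels is therefore not secure. Clustered protocadherins varied most between libraries of a species. Their median coefficient of variation was 12% in *P. polionotus* and 17.3% in *P. maniculatus*, beside 8.96% in *P. polionotus* and 7.94% in *P. maniculatus* for all 14366 genes tested. That of cadherins was 6.66% in *P. polionotus* and 7.98% in *P. maniculatus*, and that of other protocadherins 6.86% in *P. polionotus* and 9.78% in *P. maniculatus*. The most variable single tested member was a cadherin, Cdh2, at 28.7% in *P. polionotus* and 68.6% in *P. maniculatus*. The highest clustered values were 16.5% in *P. polionotus* and 32.1% in *P. maniculatus*.

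**Figure D1:**
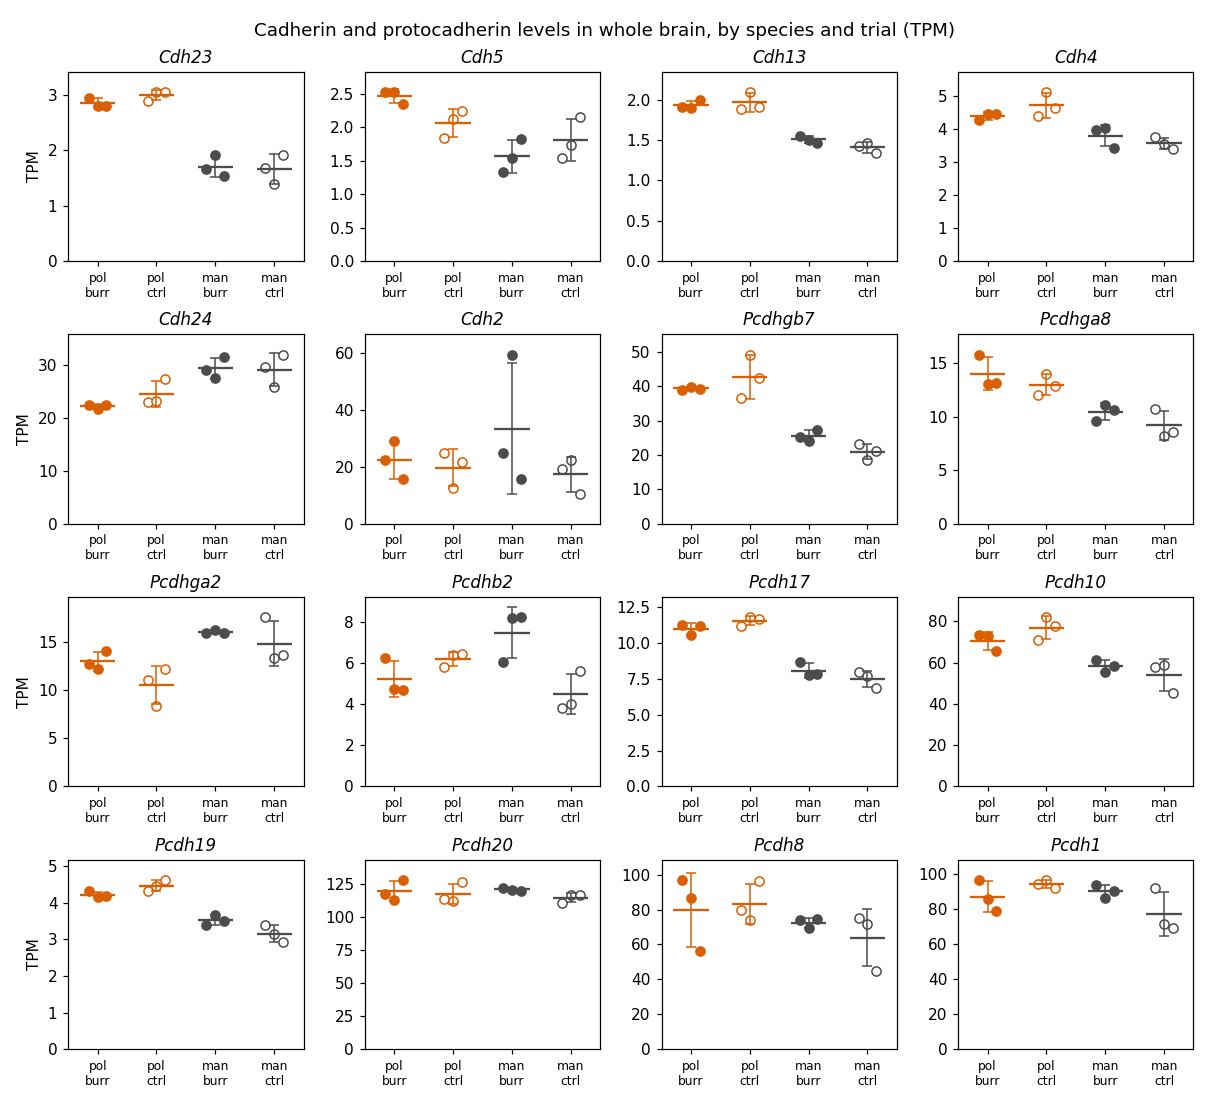
Levels of 16 members in TPM (vertical axis, linear and starting at 0) in the 12 parental libraries, with *P. polionotus* (pol) left of *P. maniculatus* (man) and burrowing (burr, filled points) left of control (ctrl, open points). Points are libraries, bars are the mean and SD of 3 libraries. Cdh4, Cdh13, Cdh23, Pcdhga8, Pcdhgb7, Pcdh10, Pcdh17 and Pcdh19 separate by species in both trials, while Pcdh20 does not. For Cdh2, 1 maniculatus burrowing library stands at 59.3 TPM.

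Between the species, 17 of the 33 tested members differed, 14 higher and 3 lower in *P. polionotus* (limma, Benjamini-Hochberg adjusted p below 0.05 over all 14366 genes). Of all genes 52.4% were called, 32.6% higher and 19.8% lower, so the share of members called was near the background. The median difference was 0.12 over the members and 0.06 over all genes. With quantile normalization the split of the members was 11 higher and 5 lower, and with median scaling 12 and 5, since Cdh22 and Cdh9 (and Cdh20 with quantile normalization) no longer passed and Cdh15 and Pcdh7 passed as lower. Of the 17 calls, 13 held under each of the alternatives run, and the others are named below.

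Cadherins made up 11 of these calls, 9 higher and 2 lower among 17 tested, with a median of 0.14. The largest was Cdh23, known for the tip links of hair cells. It stood at 2.79, 2.92 and 3.05 TPM (lowest, median and highest of 6 libraries) in *P. polionotus*, against 1.39, 1.67 and 1.93 TPM in *P. maniculatus*. The ranges did not overlap, and the difference was 0.55 (SE 0.06, adjusted p = 2.56e-05). Cdh13, T-cadherin, which is held in the membrane by a lipid anchor and lacks a cytoplasmic tail, stood at 1.89, 1.91 and 2.09 TPM in *P. polionotus*, against 1.33, 1.47 and 1.55 TPM in *P. maniculatus* (difference 0.26, SE 0.04, adjusted p = 0.000549). Cdh4, R-cadherin, a classical cadherin of the developing retina and brain, stood at 4.25, 4.45 and 5.11 TPM in *P. polionotus*, against 3.39, 3.64 and 4.01 TPM in *P. maniculatus* (difference 0.25, SE 0.05, adjusted p = 0.00228). No polionotus library fell into the maniculatus range for either gene.

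Cdh5, VE-cadherin of the junctions between endothelial cells, stood at 1.83, 2.3 and 2.53 TPM in *P. polionotus*, against 1.33, 1.64 and 2.15 TPM in *P. maniculatus* (difference 0.28, SE 0.07, adjusted p = 0.00618). The ranges overlapped. The endothelial markers Cldn5, Pecam1, Tek and Flt1 summed to 55.1 to 135 TPM in *P. polionotus*, against 96.7 to 154 TPM in *P. maniculatus*, and of these 4 genes 0 were called higher and 1 lower. The other higher cadherins are mostly type II cadherins. Cdh11 averaged 8.97 ± 0.366 TPM in *P. polionotus*, against 7.62 ± 0.492 TPM in *P. maniculatus* (difference 0.21, adjusted p = 0.00348), with no overlap. Cdh12 (0.21, adjusted p = 0.00957) held under each alternative as well. Cdh22 (0.20, adjusted p = 0.0108), Cdh9 (0.17, adjusted p = 0.0229) and Cdh20 (0.14, adjusted p = 0.0208) were less steady. Cdh22 and Cdh9 were lost under both other scalings, with adjusted p of 0.0562 to 0.119. Cdh20 was lost with quantile normalization (0.0641), with the hindbrain list as a covariate (0.0586) and without the 3 libraries that stood away (0.0654). Cdh9 was also lost without those 3 (adjusted p = 0.0609) and without maniculatus burrowing replicate 2, maniculatus control replicate 3 or polionotus control replicate 3, with adjusted p of 0.0502 to 0.0537.

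Of the lower cadherins, Cdh24, a type II cadherin, had the highest mean TPM of the class. It stood at 21.7, 22.8 and 27.5 TPM in *P. polionotus*, against 25.8, 29.4 and 32 TPM in *P. maniculatus* (difference -0.31, SE 0.06, adjusted p = 0.00186). Only polionotus control replicate 3, at 27.5 TPM, reached into the maniculatus range. Cdh6, K-cadherin, stood at 4.13, 4.43 and 4.59 TPM in *P. polionotus*, against 4.36, 5.01 and 5.92 TPM in *P. maniculatus* (difference -0.16, SE 0.06, adjusted p = 0.0448). That call was lost when any of 10 of the 12 libraries was left out, all but maniculatus control replicate 3 and maniculatus burrowing replicate 3, with adjusted p of 0.0504 to 0.0946.

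Cdh15, M-cadherin, known from muscle and from granule cells of the cerebellum, just missed the threshold. It stood at 7.85, 13.5 and 17 TPM in *P. polionotus*, against 14.7, 17.2 and 23.3 TPM in *P. maniculatus* (difference -0.49, SE 0.19, adjusted p = 0.0504), and it passed with both other scalings (adjusted p = 0.0261 and 0.0272) and without maniculatus burrowing replicate 2, maniculatus control replicate 2, polionotus burrowing replicate 3 or polionotus control replicate 3 (0.0264 to 0.0495). Cerebellar markers summed to 1206 to 1685 TPM in *P. polionotus*, against 1109 to 1786 TPM in *P. maniculatus*, and their lowest polionotus value and the lowest Cdh15 value came from the same library, control replicate 2. Their part in the result was not tested. Cdh2, N-cadherin, the main classical cadherin of neurons, stood at 12.6, 22 and 29.1 TPM in *P. polionotus*, against 10.5, 20.9 and 59.3 TPM in *P. maniculatus*. Its difference was -0.10 with a 95% interval from -0.80 to 0.59 (adjusted p = 0.808), so differences of either sign lie within its error. Cdh8 and Cdh18 did not pass either. Cdh10 (0.12, adjusted p = 0.057) passed without maniculatus control replicate 2 or polionotus control replicate 1 (adjusted p = 0.0456 and 0.025), and Cdh7 (0.11, adjusted p = 0.0739) without polionotus control replicate 2 (0.0328).

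Of the 6 clustered protocadherins tested, 2 were higher and 1 lower. Pcdhgb7 had the largest species difference of all members. It stood at 36.5, 39.6 and 49.1 TPM in *P. polionotus*, against 18.7, 23.6 and 27.3 TPM in *P. maniculatus* (difference 0.80, SE 0.07, adjusted p = 8.21e-06), with no overlap. Pcdhga8 stood at 12.1, 13.1 and 15.8 TPM in *P. polionotus*, against 8.23, 10.1 and 11.1 TPM in *P. maniculatus* (difference 0.42, SE 0.08, adjusted p = 0.000772), again with no overlap. A gamma gene went the other way: Pcdhga2 stood at 8.3, 12.2 and 14 TPM in *P. polionotus*, against 13.3, 15.9 and 17.5 TPM in *P. maniculatus* (difference -0.37, SE 0.09, adjusted p = 0.00546), with 1 polionotus library inside the maniculatus range. The 3 beta genes did not pass. Pcdhb7 averaged 15.6 ± 1.96 TPM in *P. polionotus*, against 18.6 ± 3.99 TPM in *P. maniculatus* (difference -0.22, adjusted p = 0.207), and without maniculatus control replicate 1 it passed as lower (-0.35, adjusted p = 0.0132). Pcdhb4 (-0.13, adjusted p = 0.45) and Pcdhb2 (-0.02, adjusted p = 0.886) had smaller differences.

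Of the 10 other protocadherins tested, 3 were higher and none lower. Pcdh17, a delta protocadherin known from basal ganglia and amygdala circuits in mice, stood at 10.5, 11.2 and 11.8 TPM in *P. polionotus*, against 6.83, 7.76 and 8.64 TPM in *P. maniculatus* (difference 0.48, SE 0.05, adjusted p = 1.25e-05). Pcdh10, a delta protocadherin needed for axon growth from the mouse striatum, stood at 65.5, 73.2 and 82 TPM in *P. polionotus*, against 45.2, 58.2 and 61.3 TPM in *P. maniculatus* (difference 0.39, SE 0.07, adjusted p = 0.000847). Pcdh19, whose loss causes an epilepsy in humans, stood at 4.17, 4.32 and 4.63 TPM in *P. polionotus*, against 2.93, 3.39 and 3.66 TPM in *P. maniculatus* (difference 0.30, SE 0.04, adjusted p = 0.000195). The species did not overlap for any of the 3. Markers of the striatum summed to 1103 to 1263 TPM in *P. polionotus*, against 745 to 1047 TPM in *P. maniculatus*, with 3 of 5 genes called higher, and markers of oligodendrocyte precursors to 40 to 44.8 TPM in *P. polionotus*, against 31.8 to 35.3 TPM in *P. maniculatus*, with 5 of 5 called higher. Their part in these results was not tested.

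Pcdh8, known as arcadlin from its induction by neuronal activity in rats, averaged 81.6 ± 15.4 TPM in *P. polionotus*, against 68.2 ± 11.6 TPM in *P. maniculatus* and did not pass (0.25, SE 0.15, adjusted p = 0.191). It passed without polionotus burrowing replicate 3 (0.37, adjusted p = 0.0378) and without all 3 libraries that lay apart (0.29, adjusted p = 0.0068). Pcdh1 missed with 0.12 (SE 0.07, adjusted p = 0.202) and passed without maniculatus control replicate 1 (0.18, adjusted p = 0.0201). Pcdh7 averaged 31.3 ± 2.47 TPM in *P. polionotus*, against 35.2 ± 4.56 TPM in *P. maniculatus* (difference -0.16, adjusted p = 0.0894), and it passed as lower without maniculatus control replicate 3 (-0.22, adjusted p = 0.0105). Pcdh18, Pcdh12 and Pcdh9 had differences of 0.15, 0.05 and -0.04 and did not pass, although Pcdh18 did without maniculatus burrowing replicate 1 (0.20, adjusted p = 0.0475).

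**Figure D2:**
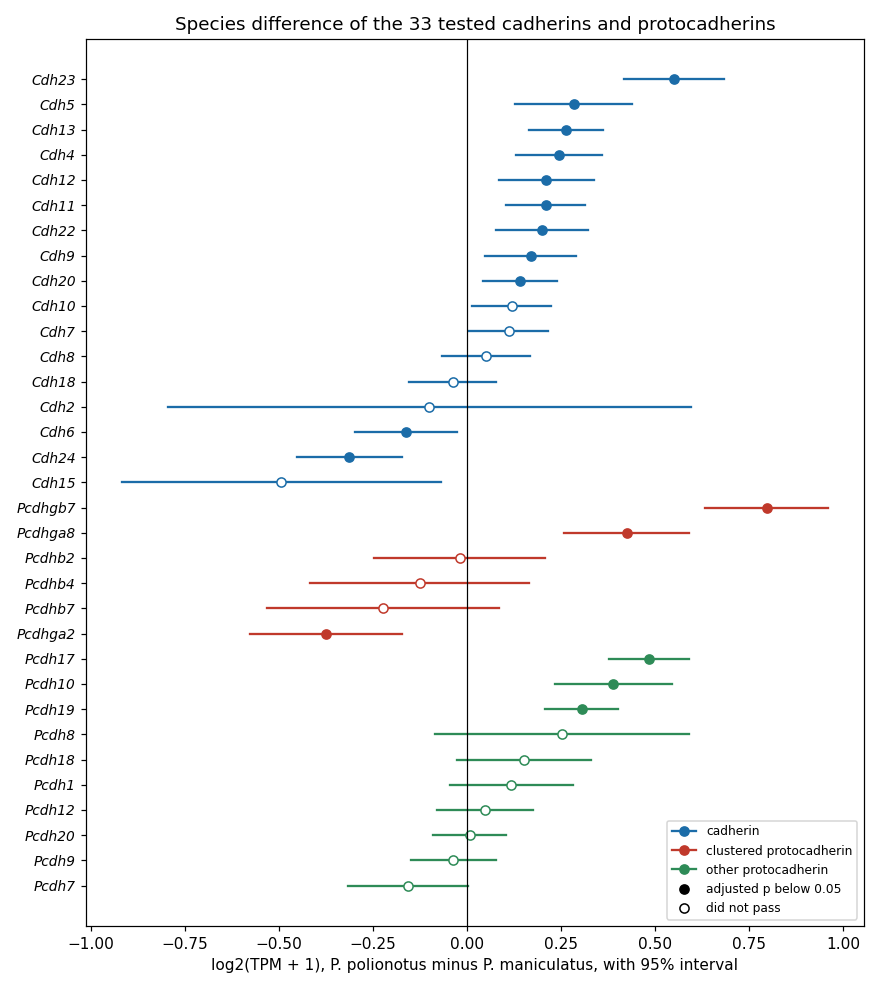
Species difference of each of the 33 tested members on the log2(TPM + 1) scale (horizontal axis, *P. polionotus* minus *P. maniculatus*), with 95% intervals from limma, ordered within the 3 classes. Filled points passed an adjusted p of 0.05. Of the 17 filled points, 14 lie right of 0 and 3 left of it, and Pcdhgb7 lies farthest from 0 at 0.80.

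Within control libraries alone 13 members were called, 12 higher and 1 lower, beside 39.6% of all genes (26.8% higher, 12.9% lower). Within burrowing libraries alone 10 were called, 7 higher and 3 lower, beside 34.1% of all genes (20% higher, 14.1% lower). Cdh13, Cdh23, Pcdh17, Pcdh19, Pcdhga8 and Pcdhgb7 were called higher in both trials. Pcdhgb7 differed by 0.98 in control libraries (adjusted p = 5.38e-05) and by 0.61 in burrowing libraries (adjusted p = 0.00125). Of these, Cdh13, Pcdhga8 and Pcdh19 were lost in the burrowing libraries when 1 library was left out, Cdh13 without replicate 3 of either species, Pcdhga8 without replicate 1 of either, and Pcdh19 without maniculatus replicate 1 or 3 or polionotus replicate 1 or 2 (adjusted p = 0.0512 to 0.081). The control calls depended on the scaling and on the hindbrain list. With quantile normalization or median scaling they were 8 higher and 2 lower, and with the mean of the hindbrain list as a covariate only Cdh23, Pcdh17, Pcdh19 and Pcdhgb7 were called.

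Pcdhb2 was the only member called in opposite directions in the 2 trials. It had 6.22, 4.73 and 4.66 TPM in polionotus burrowing libraries, against 6.04, 8.15 and 8.20 TPM in maniculatus burrowing libraries (-0.45, adjusted p = 0.0351). It had 5.82, 6.37 and 6.40 TPM in polionotus control libraries, against 3.82, 4.01 and 5.59 TPM in maniculatus control libraries (0.41, adjusted p = 0.045). The species overlapped after burrowing and did not overlap after the control trial. The control call was lost in 8 of 12 fits that each left out 1 library (any polionotus control library, maniculatus control replicate 1 or 2, maniculatus burrowing replicate 2 or 3, or polionotus burrowing replicate 2), with adjusted p of 0.0508 to 0.146. The burrowing call was lost without maniculatus burrowing replicate 2 or 3 or polionotus burrowing replicate 2 or 3, with adjusted p of 0.108 to 0.115. The test of the difference between the trials' species effects did not pass in limma (-0.86, SE 0.21, unadjusted p = 0.00164, adjusted p = 0.992 over all genes).

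No cadherin or protocadherin passed the test between burrowing and control trials, in either species or in the hybrids. In *P. polionotus* 0 of 33 members were called, beside 0% of all genes, and 1 had an unadjusted p below 0.05. In *P. maniculatus* 0 of 33 were called, beside 0.00696% of all genes (1 gene), and 3 had an unadjusted p below 0.05. The interaction of species and trial called 0 of 33 members and 0% of all genes, with 4 members below an unadjusted p of 0.05, and 26 of 33 members had a negative sign, as had 9326 of the 14366 genes. In the hybrids, edgeR called 0 of 45 members and 0% of all genes (90 of 11928 genes and 0 members had an unadjusted p below 0.05), and DESeq2 called 0 members.

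In each of these comparisons the smallest p belonged to a clustered protocadherin. In *P. maniculatus* the difference for Pcdhb2 was 0.63 between the burrowing and control values above, with a 95% interval from 0.31 to 0.95 (unadjusted p = 0.00119, adjusted p = 1), and in *P. polionotus* it was -0.22 (SE 0.15, unadjusted p = 0.155). Pcdhgb7 had 25.1, 24.0 and 27.3 TPM in maniculatus burrowing libraries, against 23.3, 18.7 and 21.1 TPM in maniculatus control libraries (0.27, SE 0.11, unadjusted p = 0.0262). In *P. polionotus* the smallest p belonged to Pcdhga2, with 12.7, 12.2 and 14.0 TPM in burrowing libraries, against 11, 8.30 and 12.2 TPM in control libraries (0.29, SE 0.13, unadjusted p = 0.0468, adjusted p = 0.998). Cdh5 came next there (0.18, SE 0.10, unadjusted p = 0.105). The interaction of species and trial was -0.37 for Pcdhgb7 (SE 0.15, unadjusted p = 0.0292), behind Pcdhb2. In the hybrids it was Pcdhb10, at 16.7, 25.6 and 14.0 allele CPM (counts scaled to a common total per animal) in burrowing animals, against 8.32, 14.2 and 14.5 in control animals (0.58, adjusted p = 0.965), followed by Pcdhb7 at 8.00, 10.8 and 7.33 allele CPM in burrowing animals, against 5.17, 7.15 and 6.83 in control animals (0.42, adjusted p = 0.965).

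The activity-induced Pcdh8 had 97.0, 86.7 and 56.2 TPM in polionotus burrowing libraries, against 79.6, 74.0 and 96.2 TPM in polionotus control libraries. It had 73.8, 69.2 and 74.5 TPM in maniculatus burrowing libraries, against 75.1, 71.7 and 45.0 TPM in maniculatus control libraries. The trials overlapped in both species, and the 95% intervals of the difference, -0.57 to 0.39 in *P. polionotus* and -0.27 to 0.69 in *P. maniculatus*, leave room for a change of either sign. Cdh2 was as poorly fixed, with 22.4, 29.1 and 15.7 TPM in polionotus burrowing libraries, against 25.0, 12.6 and 21.6 TPM in polionotus control libraries, and with 24.8, 59.3 and 15.8 TPM in maniculatus burrowing libraries, against 19.3, 22.4 and 10.5 TPM in maniculatus control libraries.

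In an F1 hybrid both alleles sit in the same cells, so the share of allele counts on the polionotus allele compares the alleles within an animal. Of the 45 members, 27 differed from equal shares, 22 with more counts on the polionotus allele and 5 with fewer, beside 55.7% of all genes (34.2% more, 21.5% fewer; edgeR with the animal as a block). The median log2 ratio of polionotus over maniculatus counts was 0.29 for the members and 0.11 for all genes. The polionotus allele held 52.6% to 53.1% of all allele counts of an animal. With each allele column scaled to its own total, the median of all genes moved by -0.18 and the split of the members was 14 and 13. Relative to the median of all genes, the median of the members was 0.18 under either scaling, that of cadherins 0.20, of clustered protocadherins 0.26 and of other protocadherins -0.10. Shares a few points from 50% therefore carry no firm direction. Of the 27 calls, 6 held under each of the alternatives run (Cdh12, Cdh23, Pcdh19, Pcdhb6, Pcdhga1 and Pcdhgc3), and 19 held when any 1 animal was left out.

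Among cadherins 8 of 14 were called, all with more polionotus counts, a number that was 5 with 2 lower under the own-total scaling. Cdh1, E-cadherin, the classical cadherin of epithelia, had polionotus shares of 71.6%, 71.3% and 75.7% in burrowing animals and 67.6%, 71.1% and 57.8% in control animals (log2 ratio 1.16, adjusted p = 0.00154), on 639 counts in all. Cdh5 had 66%, 79.5% and 66.9% in burrowing animals and 64%, 67.1% and 64.2% in control animals (1.11, adjusted p = 0.00157). Every animal lay above 50% for both genes, with burrowing replicate 2 highest for Cdh5 and control replicate 3 lowest for Cdh1 (95% Wilson interval 51.5% to 63.8%). Cdh1 was not called in control animals alone (adjusted p = 0.0752), nor Cdh5 in burrowing animals alone (adjusted p = 0.0522). Cdh23 had 67.7%, 65.8% and 68.7% in burrowing animals and 59.9%, 67.3% and 63.7% in control animals (0.93, adjusted p = 0.000184). Cdh19, a type II cadherin known from glia of peripheral nerve, had 62.8%, 59.1% and 61.5% in burrowing animals and 55.6%, 59.8% and 54.6% in control animals (0.52, adjusted p = 0.00248). The other calls were smaller. Cdh12 had a share of 57.3% ± 0.871 (SD, n = 6 animals), Cdh7 55.5% ± 2.25, Cdh15 55% ± 3.87 and Cdh13 53.8% ± 1.73, and of these Cdh12 alone passed under the own-total scaling. Cdh15 was also lost without burrowing replicate 1, burrowing replicate 2 or control replicate 2 (adjusted p = 0.0565 to 0.0694).

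Cdh4, Cdh6, Cdh18 and Cdh20 had mean ratios from -0.04 to 0.16 and did not pass. Cdh24 and Cdh3 did not pass, and their animals were spread widely. Cdh24 had 48%, 82.9% and 67.9% in burrowing animals and 47.3%, 49.6% and 67.3% in control animals (0.66, adjusted p = 0.147). Cdh3, the member with the fewest counts, ran from 11.1% in burrowing replicate 2 (4 of 36 counts, 95% Wilson interval 4.41% to 25.3%) to 62.9% in burrowing replicate 3.

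Clustered protocadherins held the largest ratios of the members toward the polionotus allele. Of 22 tested, 10 had more and 3 fewer polionotus counts (6 and 6 under the own-total scaling), with a median ratio of 0.37. Pcdhb6 had polionotus shares of 87.4%, 82.4% and 82.2% in burrowing animals and 80%, 88.5% and 81.8% in control animals (2.36, adjusted p = 2.75e-05), on 1018 counts. Pcdhga10 had 70.6%, 67.4% and 84.3% in burrowing animals and 88.4%, 69% and 84.3% in control animals (1.85, adjusted p = 0.00263). No animal fell below 67.4% for either gene. Pcdhga1 had a share of 68.1% ± 4.22 (1.10, adjusted p = 0.000282) and Pcdhgb2 of 65.6% ± 5.95 (0.94, adjusted p = 0.00218). Pcdhgc3, a C-type gamma gene that most neurons use and the second deepest clustered member with 27644 counts, had 63.1%, 67.1% and 67.4% in burrowing animals and 69.6%, 63.8% and 68.1% in control animals (0.99, adjusted p = 3.51e-05). Pcdhac2, the C-type alpha gene with 31987 counts, lay at 51.5% ± 0.859 (0.08, adjusted p = 0.0352), a call that was lost when any animal was left out and whose sign turned under the own-total scaling (-0.10).

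Pcdhb16 had 89.4%, 90.7% and 57.6% in burrowing animals and 57.5%, 94.1% and 60.9% in control animals (1.80, adjusted p = 0.0427). The 6 animals lay either between 89.4% and 94.1% or between 57.5% and 60.9%, and the call was lost without burrowing replicate 1, burrowing replicate 2 or control replicate 2 (adjusted p = 0.105, 0.0974 and 0.0889). Pcdha4 had 64.1% ± 10.9, Pcdhga4 59.4% ± 4.8 and Pcdhga5 54.5% ± 3.42. Of these, Pcdha4 was lost without burrowing replicate 2, burrowing replicate 3 or control replicate 3 (adjusted p = 0.0513 to 0.0699), and Pcdhga5 without burrowing replicate 3 or any control animal (adjusted p = 0.0599 to 0.0875).

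The 3 clustered members with fewer polionotus counts were close to equal shares. Pcdhgb5 had 48.6%, 44.6% and 35.3% in burrowing animals and 44.4%, 43.2% and 43.3% in control animals (-0.40, adjusted p = 0.0183). Pcdha2 had 43.1% ± 5.12 (-0.37, adjusted p = 0.0364) and Pcdha3 43.9% ± 5.26 (-0.35, adjusted p = 0.0487). Both were lost without burrowing replicate 2, burrowing replicate 3, control replicate 1 or control replicate 3, and Pcdha3 also without control replicate 2 (adjusted p = 0.0656 to 0.131).

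The strongest ratio toward the maniculatus allele was that of an X-linked protocadherin. Of 9 tested, 4 had more and 2 fewer polionotus counts (3 and 5 under the own-total scaling). Pcdh19 had polionotus shares of 12.5%, 5.18% and 8.72% in burrowing animals and 9.89%, 10.9% and 9.3% in control animals (-3.31, adjusted p = 2.16e-05). In a RefSeq table of a *P. maniculatus* assembly it lies on the X, of which males carry a single copy. The 36 genes of the count table on the X in that assembly had a median polionotus share of 16.5%. Of these genes, 19 were below 20%, 29 were below 50%, and the rest were at 50% or more. The share of Pcdh19 therefore does not compare alleles that are both present, as those of autosomal genes do. Counts on both alleles of a gene with a single copy include reads given to an absent allele. How far such reads enter the shares of autosomal members was not tested. Pcdh15 had 45.9%, 46.4% and 43.9% in burrowing animals and 48.2%, 40% and 45% in control animals (-0.29, adjusted p = 0.0107).

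Pcdh7, a delta protocadherin with 22709 counts, had 71.5%, 49.7% and 69.3% in burrowing animals and 71.3%, 72.3% and 72.2% in control animals (1.10, adjusted p = 0.00441). Burrowing replicate 2 held equal shares on 3897 counts (95% Wilson interval 48.1% to 51.3%), while the other 5 animals lay between 69.3% and 72.3%. Pcdh17 had 60.1%, 55.2% and 62.3% in burrowing animals and 60%, 63.6% and 58.7% in control animals (0.59, adjusted p = 0.000703). Pcdh1 had 59.5%, 61.6% and 55.9% in burrowing animals and 56.7%, 60.7% and 56.1% in control animals (0.49, adjusted p = 0.00056). Pcdh12, an endothelial protocadherin with 350 counts, had 62.2% ± 10.3 (0.75, adjusted p = 0.0308), a call that was lost without burrowing replicate 1, burrowing replicate 2, control replicate 2 or control replicate 3 (adjusted p = 0.0706 to 0.082). Pcdh10 (50.2% ± 0.865) and Pcdh8 (49.4% ± 0.889) lay at equal shares with little spread. Pcdh9 had 49.8%, 50% and 39.8% in burrowing animals and 50.4%, 50.9% and 40.2% in control animals (-0.19, adjusted p = 0.211), so that burrowing replicate 3 and control replicate 3 stood apart below the other 4 animals.

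**Figure D3:**
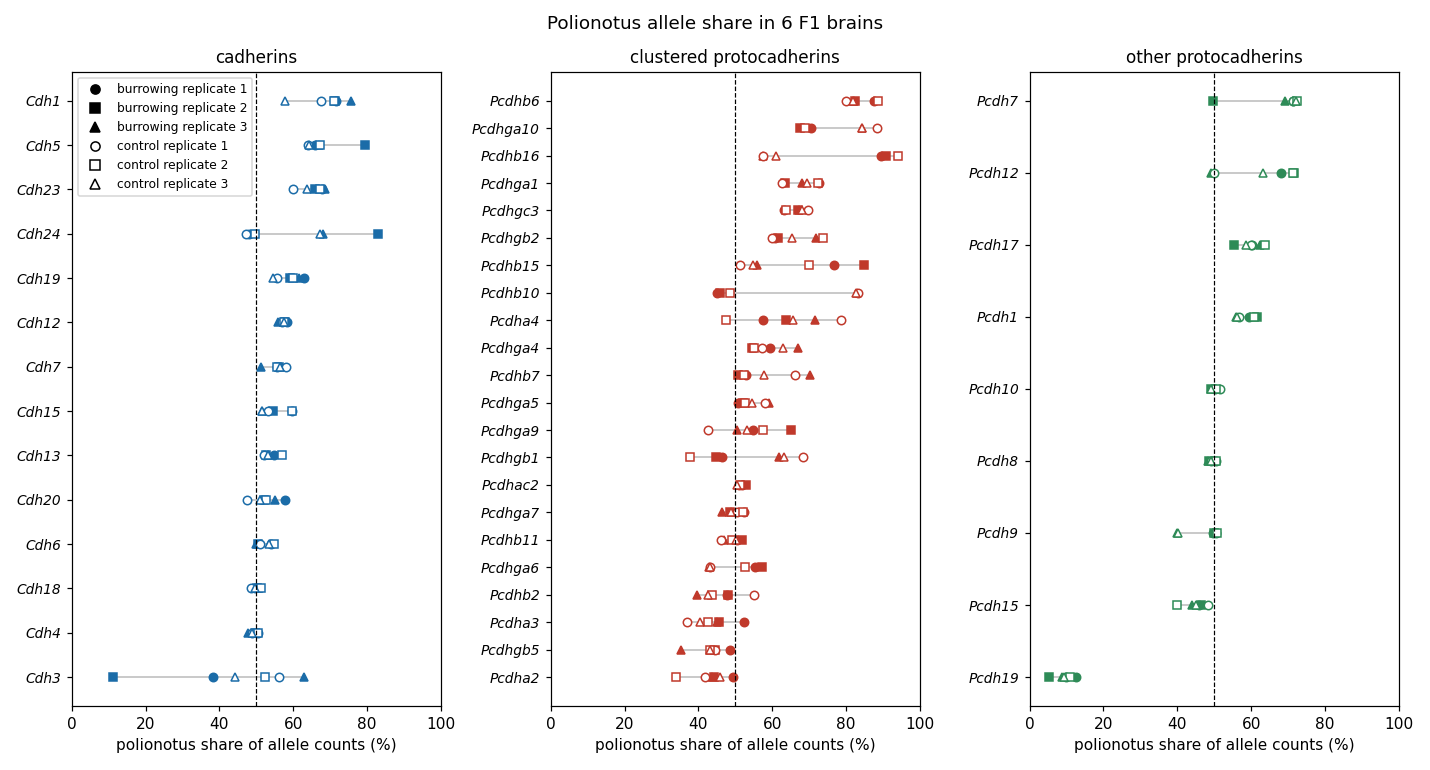
Polionotus share of allele counts in percent (horizontal axis) for the 45 members in each of 6 F1 animals, ordered by mean share within class. Filled symbols are burrowing animals and open symbols control animals, and the dashed line marks 50%. Pcdhb6 lies at 80% or above in all 6 animals, Pcdh19 at 12.5% or below, and Pcdhb16, Pcdhb10 and Cdh24 spread widely between animals.

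No member passed the test for an allele ratio that differed between trials. The interaction of allele and trial called 0 of 45 members in edgeR and 0 in DESeq2, with 0 below an unadjusted p of 0.05, beside 0.226% of all genes (0.218% higher, 0.00838% lower). The smallest p belonged to Pcdha3, with 52.5%, 45.6% and 45% in burrowing animals and 37%, 42.7% and 40.5% in control animals (0.44, unadjusted p = 0.0582, adjusted p = 1), and to Cdh1 (0.56, unadjusted p = 0.0914, adjusted p = 1).

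Shares of clustered protocadherins differed between animals in a shared pattern, which was noticed in these values and is given as a description. The distance between the highest and the lowest animal had a median of 14.8 points for clustered members, 8.31 for cadherins, 8.23 for other protocadherins and 10.2 for all genes. Among genes with 500 to 5000 counts it was 15.4 points for 20 clustered members and 12.6 points for 4450 other genes. Burrowing replicates 1 and 2 and control replicate 2 stood together. For 13 of the 22 clustered members (59.1%) these 3 animals held either the 3 highest or the 3 lowest shares, against 9.93% of all genes. Clustered members lie together in arrays, so the 22 do not count as independent genes beside that share. For Pcdhb6, Pcdhac2 and Pcdhgc3 the gap between the 3 animals and the next was 0.246, 0.253 and 0.271 points, within the counting error of their shares. For Pcdha4, Pcdhga5 and Pcdhga9 it was 2.05, 1.76 and 1.81 points, and the Wilson intervals on either side of it overlapped. The gap was over 5 points for Pcdhb7, Pcdhb10, Pcdhb15, Pcdhb16, Pcdhga6, Pcdhga10 and Pcdhgb1. Of these, Pcdhb7, Pcdhb15 and Pcdhga6 still had overlapping intervals on either side of the gap.

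The side differed between genes. The 3 animals were highest for Pcdhb6, Pcdhb15, Pcdhb16, Pcdhga6, Pcdhga9 and Pcdhac2, and lowest for Pcdhb7, Pcdhb10, Pcdha4, Pcdhga5, Pcdhga10, Pcdhgb1 and Pcdhgc3. Pcdhb15 had 76.7%, 84.7% and 55.8% in burrowing animals and 51.2%, 70% and 54.8% in control animals (0.99, adjusted p = 0.0549 in edgeR), and DESeq2 called it (adjusted p = 0.0125). Pcdhb10 had 45.1%, 45.9% and 82.9% in burrowing animals and 83.2%, 48.6% and 82.7% in control animals (0.98, adjusted p = 0.154), so its animals lay either between 45.1% and 48.6% or between 82.7% and 83.2%, with the animals that were high for Pcdhb16 low here. Pcdhgb1 crossed equal shares, with 46.5%, 44.7% and 61.8% in burrowing animals and 68.3%, 37.8% and 63.3% in control animals. Outside the clustered class, 2 of 14 cadherins (Cdh4 and Cdh15) and 2 of 9 other protocadherins (Pcdh1 and Pcdh12) also put these 3 animals on top, which is 14.3% and 22.2% of those classes. In the *P. maniculatus* assembly Pcdh1 and Pcdh12 lie on the chromosome of Pcdhb15, at a distance of 11 and 13 protein-coding genes, and Cdh4 and Cdh15 lie on others. For Cdh4, Cdh15, Pcdh1 and Pcdh12 the Wilson intervals on either side of the gap overlapped. What set these animals apart was not tested.

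**Figure D4:**
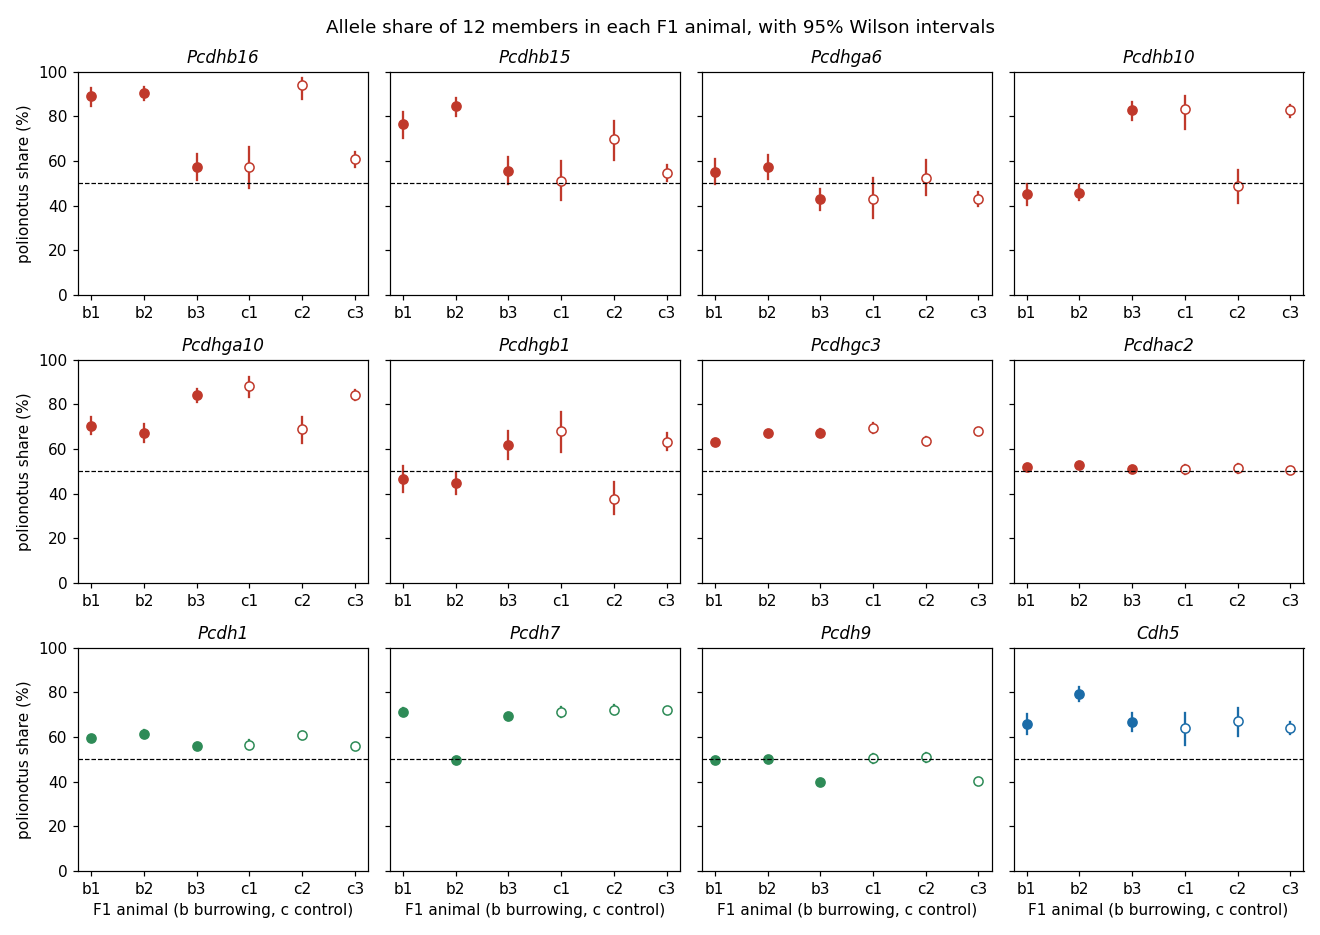
Polionotus share in percent (vertical axis) of 12 members in F1 burrowing animals b1 to b3 (filled) and F1 control animals c1 to c3 (open), with 95% Wilson intervals that cover counting error only. In Pcdhb16, Pcdhb15 and Pcdhga6 the animals b1, b2 and c2 lie above the others, in Pcdhb10, Pcdhga10 and Pcdhgb1 below them, and Pcdh7 and Pcdh9 split the animals differently.

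The species difference and the allele ratio could both be tested for 21 members. Both were called for 6, 5 of them with the same sign and 1 with opposite signs. Among all 9989 genes tested for both, 32% were called in both, 26.5% with the same sign and 5.56% with opposite signs. The 5 were Cdh5 (species 0.28, allele 1.11), Cdh23 (0.55 and 0.93), Pcdh17 (0.48 and 0.59), Cdh12 (0.21 and 0.42) and Cdh13 (0.26 and 0.22). The member with opposite signs was Pcdh19 (0.30 and -3.31), which lies on the X, as described above. The 2 scales differ, since the species value is a difference of log2(TPM + 1), which shrinks low genes, and the allele value a ratio of counts, and the difference between the 2 was not tested.

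Another 5 of the 21 members were called between species only and 5 between alleles only. Among all 9989 genes tested for both, 2000 were called between species only and 2336 between alleles only. These shares of the members were therefore near the background. Pcdh10 differed between species by 0.39 with an allele ratio of 0.01, and Cdh4 by 0.25 with -0.04. Pcdh7 had a species difference of -0.16 that did not pass and an allele ratio of 1.10. Cdh24 was called lower in *P. polionotus* (-0.31), while its allele ratio was 0.66 and did not pass. Only 2 clustered members, Pcdhb2 and Pcdhb7, were in both tables, and neither was called by limma between species or by edgeR between alleles. For the allele ratio, DESeq2 called Pcdhb7 (0.47, adjusted p = 0.0409), and edgeR called Pcdhb2 under the own-total scaling (-0.42, adjusted p = 0.027) and without control replicate 1 (-0.33, adjusted p = 0.0478). Pcdhb6, Pcdhga10 and Pcdhb16, the called members of that class with the largest allele ratios, have no species value here, and Pcdhgb7 has no allele value.

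**Figure D5:**
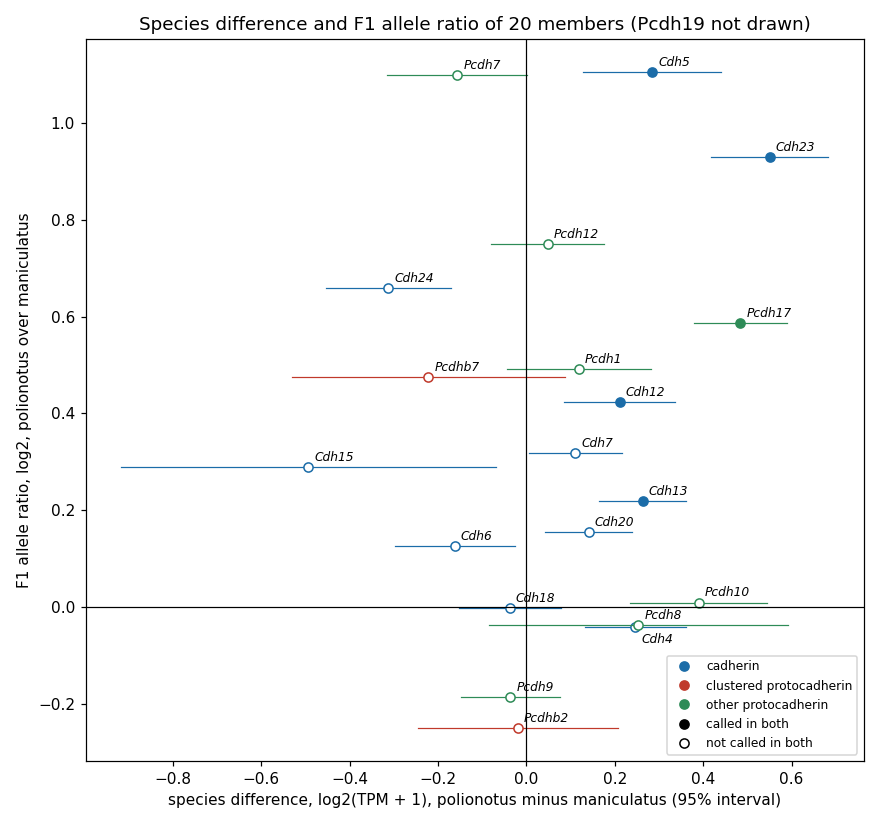
Species difference on the log2(TPM + 1) scale with its 95% interval (horizontal axis, *P. polionotus* minus *P. maniculatus*) against the F1 allele ratio (vertical axis, log2 polionotus over maniculatus counts) for 20 members in both tables. Pcdh19 (0.30 and -3.31) is not drawn. Filled points, called in both, all lie in the upper right quadrant, while Pcdh10 and Cdh4 lie near an allele ratio of 0.

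Genes that work with cadherins were read from 4 lists. Between species, 52.4% of all genes were called (32.6% higher, 19.8% lower), and no list exceeded that share. Of 12 tested catenins and junction partners 4 were higher and 1 lower in *P. polionotus* (median 0.07), with 3 and 3 under both other scalings. The adhesion partner Nectin3 averaged 6.32 ± 0.585 TPM in *P. polionotus*, against 3.44 ± 0.177 TPM in *P. maniculatus* (difference 0.72, adjusted p = 2.95e-06), and vinculin, Vcl, which links catenins to actin, 3.9 ± 0.237 TPM in *P. polionotus*, against 2.59 ± 0.215 TPM in *P. maniculatus* (difference 0.45, adjusted p = 5.63e-05). Of 16 atypical members of the superfamily 6 were higher and 1 lower (median 0.09), with 5 and 2 under quantile normalization and 4 and 2 under median scaling. Celsr1, a planar polarity cadherin, averaged 4.44 ± 0.801 TPM in *P. polionotus*, against 0.983 ± 0.179 TPM in *P. maniculatus* (difference 1.45, adjusted p = 1.24e-06), with an allele ratio of 2.34 (adjusted p = 0.000129). Fat4 went the other way with 1.38 ± 0.108 TPM in *P. polionotus*, against 2.08 ± 0.123 TPM in *P. maniculatus* (difference -0.37, adjusted p = 0.000143).

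Of 11 regulators of clustered promoter choice, which include Ctcf and cohesin subunits, 1 was higher and 1 lower (median -0.01), with 0 and 3 under both other scalings. The 2 calls were Smc3, a cohesin subunit, with 23.6 ± 2.08 TPM in *P. polionotus*, against 21.1 ± 0.621 TPM in *P. maniculatus* (difference 0.15, adjusted p = 0.0382), and the cohesin release factor Wapl with 17 ± 0.785 TPM in *P. polionotus*, against 18.6 ± 0.506 TPM in *P. maniculatus* (difference -0.13, adjusted p = 0.0216). Of 14 genes of protocadherin signalling and cleavage 4 were higher and 1 lower (median 0.01), with 1 and 3 under quantile normalization and 1 and 4 under median scaling. Among the calls were Cyfip2 (0.24, adjusted p = 0.000889) and Wasf1 (-0.24, adjusted p = 0.00296), both parts of the WAVE complex that drives actin branching. By allele, 5 more and 3 fewer of 10 junction partners, 8 and 3 of 18 atypical members, 5 and 0 of 8 regulators and 5 and 5 of 14 signalling genes were called, beside 55.7% of all genes (34.2% more, 21.5% fewer). Under the own-total scaling these splits were 5 and 5, 6 and 5, 5 and 1, and 4 and 9, beside 2786 and 4215 of all genes. None of the listed genes was called between trials in either species or in the hybrids. The interaction of allele and trial called 1 in edgeR, Wiz, a zinc finger partner of histone methyltransferases (1.77, adjusted p = 0.011). Beside it, 27 of 11928 genes (0.226%) were called, 26 of them higher. Wiz was named after its value was seen, and what lay behind its call was not tested.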

How the data were processed

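RNA of whole male brains was sequenced from stranded poly(A) libraries, 3 per group, per the labels' protocols. Reads were aligned with STAR 2.4.2a, per the submitters' processing notes. No source used here gives the genome build, the annotation, how reads were given to an allele or how reads that fit several genes were treated. The authors deposited TPM of the 12 parental libraries (column sums 977912 to 983476), which keep no depth, and counts per gene and allele of the 6 hybrids (smallest value 2). Among the TPM rows, 1 that names no gene (0.789% to 2.48% of the TPM of a library) was left out, and 27 and 19 rows of the 2 tables that spreadsheet software had renamed as dates were tested unnamed. Groups came from the sample titles.

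Parental values were tested with limma 3.58.1 (R 4.3.3, mean trend) on log2(TPM + 1) with 1 mean per group, for the 14366 genes whose mean reached 1 TPM. Fold changes on this scale understate those of low genes. Hybrid counts were tested with edgeR 4.0.16 (quasi-likelihood). The trial test used summed alleles, TMM and edgeR's expression filter (filterByExpr). The allele tests used the animal as a block, both alleles' sum as library size without TMM, and a minimum mean of 20 counts. The own-total scaling of the alleles added TMM. Tests were two-sided, with Benjamini-Hochberg adjustment over all genes of a comparison and a threshold of 0.05. DESeq2 1.42.0, other pseudocounts, filters and scalings, a replicate block, a hindbrain covariate and leaving out libraries were alternatives. Errors after ± are SD, and Wilson intervals (95%) cover counting error only. Scripts were tested on simulated data.

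Members, gene lists and tests were chosen with earlier results of these data known. Genes named with values were, per class, the 4 highest by TPM, the 4 largest called changes per direction between species and alleles, the 2 smallest p where no member was called, the calls shared by species and allele, members at the filter limit and 2 genes per partner list. Cdh2, Pcdh8 and Pcdh7 between trials, the per-trial species values, the smaller calls, the calls that 1 library decides, the members far apart between animals and Wiz were added after their values were seen. A RefSeq gene table (assembly GCF_049852395.1) matched 36 of 61 members by symbol and was used for the X and for gene order only.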

Additional observations from a re-analysis of the deposited data

Results flagged for a closer look

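In 79 sets of 6 libraries or animals (the named members by species, or by hybrid share), 6 had an end value standing far from the others, where chance alone gives about 1 in 20 sets. Pcdh7 had a polionotus share of 49.7% in F1 burrowing replicate 2, against 69.3% to 72.3% in the other animals. Cdh5 had a polionotus share of 79.5% in the same animal, against 64% to 67.1% in the others. Cdh24 was at 27.5 TPM in polionotus control replicate 3, against 21.7 to 23.2 TPM in the other libraries of that species. Cdh2 was at 59.3 TPM in maniculatus burrowing replicate 2, against 10.5 to 24.8 TPM. Pcdh10 was at 45.2 TPM and Pcdh8 at 45 TPM in maniculatus control replicate 3, against 55.7 to 61.3 TPM and 69.2 to 75.1 TPM in the other maniculatus libraries.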

How the results depend on the processing

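The counts of calls in this paragraph stand without the share of all genes called under the same setting. They do not tell whether members changed more than other genes did. Limited to genes of at least 5 TPM, calls between species numbered 9 of 18 members (4 cadherins). Within control libraries they numbered 8 and within burrowing libraries 6. With the hindbrain list as a covariate 4 were called within control libraries. Without the 3 libraries that lay apart 5 other protocadherins were called between species, where all libraries gave 3 (Pcdh7 and Pcdh8 were gained), and 8 cadherins, where all gave 11 (Cdh6, Cdh9 and Cdh20 were lost). For alleles, control animals alone gave 15 calls (4 cadherins, 7 clustered) and burrowing animals alone 9 (4 cadherins, 3 clustered, 2 other). Leaving out 1 animal gave 8 to 11 clustered calls, where all 6 animals gave 13, with 8 without control replicate 3, burrowing replicate 2 or burrowing replicate 3. Deviations of same-numbered libraries correlated at 0.254, 0.126 and 0.0994 between the maniculatus trials, each best with its own number. That is a hint from the data, with only the third value just short of 0.1. Correlations were -0.229 to 0.0484 between the polionotus trials, -0.119 to 0.0989 between species within a trial, and -0.447, -0.567 and 0.19 between the hybrid trials, so the numbers were not taken to pair samples. With the replicate number as a block the species test gave 18 calls, the control libraries 14, the burrowing libraries 10, the trial comparisons and interactions 0, and the alleles 17 in place of 27 (5 cadherins, 3 other protocadherins), among them Pcdhb15 (adjusted p = 0.0416).

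Signs turned in the species test for Cdh2, which was not called, without maniculatus control replicate 2 (0.00), maniculatus burrowing replicate 2 (0.16), polionotus control replicate 2 (0.04) or polionotus burrowing replicate 3 (0.01), and leaving out 1 library gave -0.31 to 0.16. They turned for Pcdh20, not called either, with -0.051 under quantile normalization, -0.063 under median scaling, and without maniculatus control replicate 1, polionotus control replicate 3 or polionotus burrowing replicate 3, where leaving out 1 library gave -0.019 to 0.027. The cause was not tested. Of 849 values for 48 named gene results, 769 kept their sign and side of the threshold, 58 lost a call, 13 gained one and 9 changed sign. TPM give no depth, and members under 1 TPM could not be tested.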
